A study of Mus musculus with 6 samples.

Results

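Promoter-proximal accessible regions of mouse embryonic stem cells (mESCs) were described here as the ATAC-seq peaks that lie more than 1 kb and at most 10 kb from the nearest transcription start site (TSS). The distance ran from the nearest edge of the peak to any TSS of a curated RefSeq transcript (NM_ or NR_, GRCm38) on chromosomes 1 to 19. This rule, which uses position alone, took 8646 of the 41014 listed peaks, or 21.1% (Wilson 95% interval 20.7 to 21.5). Of the 40228 peaks on chromosomes 1 to 19, another 6166 lay within 1 kb of a TSS, 21025 lay 10 to 100 kb away and 4391 lay beyond 100 kb. The series belongs to a study of ZBTB transcription factors, cohesin and chromatin interactions. Its 6 ATAC-seq samples form 3 groups of 2, and the values below come from the single list of peaks of the 2 untreated samples of V6.5 cells, an mESC line grown with leukaemia inhibitory factor, serum and irradiated mouse embryonic fibroblasts. The study's methods also list inhibitors of MEK and of glycogen synthase kinase in the medium. The labels name no degron for the untreated cells, although the treatment text that all samples share speaks of doxycycline for degron cells. Cells with a degron on ZBTB21, before and after its depletion, were not analysed here.

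The list pools both untreated replicates and has no value per replicate, so no spread between replicates, no depth and no test could be given. All intervals are 95% intervals that cover counting error only, and peaks are regions of 1 genome, not replicates. Each peak carries a whole-number score from the authors, which ran from 540 to 953 over the list. The label of the cells was checked against marker genes. Of 10 mESC markers, 6 had a listed peak within 10 kb of a TSS, among them Pou5f1, Nanog, Zfp42 and Sall4, while Sox2, Esrrb, Klf4 and Tdgf1 had none. Of 12 fibroblast markers, 3 had one (Col1a1, Pdgfrb and Thy1), and the part of the feeder cells in these peaks was not tested. Of all coding genes, 52.5% had a listed peak within 10 kb of a TSS. The count of mESC markers is near that share, so it cannot decide the identity of the cells. The list is sparse at promoters. Only 5765 of 20021 protein-coding genes, or 28.8%, had a listed peak within 1 kb of a TSS, and Actb, Ppia, Eef1a1 and Sdha, which nearly every cell transcribes, had none. A gene without a listed peak can therefore not be read as closed.

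ATAC-seq uses the transposase Tn5, which inserts adapters where DNA is not wrapped in nucleosomes or bound tightly by other proteins. Regions so opened near a gene but outside its core promoter include enhancers, insulators bound by CTCF and alternative promoters. In mESCs, OCT4 (encoded by Pou5f1), SOX2, KLF factors and ESRRB bind such elements, often side by side, and hold the cells in the pluripotent state. Promoters themselves are mostly CpG islands, bound by SP, ETS, NRF1, YY1 and NFY factors.

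Examples show what these regions look like. The pluripotency genes Nanog, Pou5f1, Klf2 and Prdm14 are shown because a proximal peak was listed for each, whereas none was listed for Sox2 or Klf4. For each gene the 200 bases around the midpoint of its highest-scored proximal peak outside exons are given, read from the plus strand of the reference genome GRCm38, not from the cells. Capitals mark every match, on either strand, of 15 short motifs that are spelled out below with the motif shares. The Nanog window lies at chr6:122702663-122702862, in a peak of 982 bp with a score of 850 whose edge was 4236 bp upstream of the TSS. The Pou5f1 window lies at chr17:35503971-35504170, in a peak of 634 bp with a score of 906 at 1645 bp upstream. The Klf2 window lies at chr8:72316264-72316463, in a peak of 784 bp with a score of 902 at 2307 bp upstream. All 3 are intergenic. The Prdm14 window lies at chr1:13117933-13118132 in an intron of the gene, other than its first, in a peak of 369 bp with a score of 710 at 8946 bp downstream.
Nanog: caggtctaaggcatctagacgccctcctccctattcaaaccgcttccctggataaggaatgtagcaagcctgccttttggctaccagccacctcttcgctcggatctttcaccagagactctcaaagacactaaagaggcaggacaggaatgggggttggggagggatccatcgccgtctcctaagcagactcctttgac
Pou5f1: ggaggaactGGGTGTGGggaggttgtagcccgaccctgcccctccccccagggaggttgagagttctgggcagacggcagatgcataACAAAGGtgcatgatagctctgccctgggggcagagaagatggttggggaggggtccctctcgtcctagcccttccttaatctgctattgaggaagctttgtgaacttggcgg
Klf2: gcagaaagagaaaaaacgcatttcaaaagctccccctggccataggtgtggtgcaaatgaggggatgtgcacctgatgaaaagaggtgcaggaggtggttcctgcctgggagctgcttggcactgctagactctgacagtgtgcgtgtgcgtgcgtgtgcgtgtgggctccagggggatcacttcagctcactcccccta
Prdm14: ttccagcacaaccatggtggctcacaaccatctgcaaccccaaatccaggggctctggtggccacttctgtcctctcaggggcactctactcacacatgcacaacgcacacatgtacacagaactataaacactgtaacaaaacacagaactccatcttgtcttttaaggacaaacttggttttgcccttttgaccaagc

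Only the Pou5f1 window held matches, one of the KLF motif starting at base 10 and one of the SOX motif starting at base 88. The motif shares below use a wider window of 300 bp around the midpoint. In that window the Nanog peak held SOX and the Klf2 peak held the CTCF core and SOX, whereas the Prdm14 peak held none. A match is a run of letters, not a site shown to be bound, and a window without one says nothing about binding.

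Another 3 windows are shown because their motifs differed most, in percentage points, between proximal peaks and peaks within 1 kb of a TSS. Each is the highest-scored proximal peak with that motif in its central 200 bases outside exons, and capitals mark that motif alone. The GC box of SP factors is shown at Taok3, a kinase gene, at chr5:117125887-117126086, in a peak with a score of 929 that lay 5500 bp downstream of the TSS in the first intron. The ETS motif is shown at Rpn1, which encodes a subunit of the oligosaccharyltransferase complex, at chr6:88075153-88075352, in an intergenic peak with a score of 936 at 8870 bp upstream. The SOX motif is shown at Gnai2, which encodes an inhibitory G protein subunit, at chr9:107626934-107627133, in a peak with a score of 942 at 7932 bp downstream in the first intron.
Taok3: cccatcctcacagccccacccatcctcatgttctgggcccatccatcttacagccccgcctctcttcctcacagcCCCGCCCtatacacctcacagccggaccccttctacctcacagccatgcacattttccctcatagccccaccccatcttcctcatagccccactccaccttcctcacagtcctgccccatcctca
Rpn1: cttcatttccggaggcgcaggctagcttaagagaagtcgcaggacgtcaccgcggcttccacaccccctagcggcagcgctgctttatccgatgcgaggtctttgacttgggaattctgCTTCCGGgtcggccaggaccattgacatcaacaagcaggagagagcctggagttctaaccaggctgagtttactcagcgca
Gnai2: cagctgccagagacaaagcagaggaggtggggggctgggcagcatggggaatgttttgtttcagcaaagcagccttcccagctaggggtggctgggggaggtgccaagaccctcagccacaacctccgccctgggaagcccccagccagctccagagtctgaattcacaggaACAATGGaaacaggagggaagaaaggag

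Proximal peaks were fewer per length of sequence at 1 to 5 kb from a TSS than at 5 to 10 kb. The sequence 1 to 10 kb from a TSS measured 370 Mb, which is 15.4% of the bases of chromosomes 1 to 19. By the distance of the peak midpoint, density was 113 peaks per Mb within 1 kb of a TSS (110 to 116). It was 24.5 at 1 to 2 kb (23.2 to 26.0), 21.1 at 2 to 3 kb, 19.7 at 3 to 4 kb and 19.8 at 4 to 5 kb (18.5 to 21.2). Density then stood at 26.9 at 5 to 6 kb (25.4 to 28.6), and in the bins from there to 10 kb it ran from 24.3 to 26.6 peaks per Mb. Between 10 and 20 kb it was 24.1. Density did not fall steadily away from the TSS, and the highest bin beyond 2 kb was the one just past 5 kb.

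**Figure D1:**
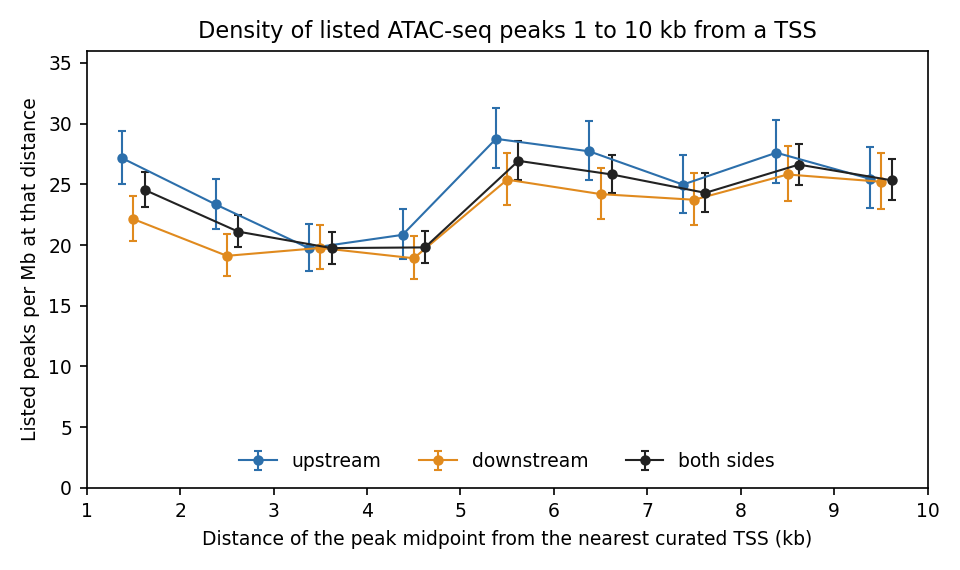
Listed peaks per Mb of sequence (vertical axis) by the distance of the peak midpoint from the nearest curated TSS in kb (horizontal axis), on the upstream side, the downstream side and both. Points are 1 kb bins, bars are Poisson 95% intervals, and the points from 2 to 5 kb, at 18.9 to 23.3 per Mb, lie below those from 5 to 10 kb, at 23.7 to 28.7 per Mb.

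Over both sides, density was 21.4 peaks per Mb at 1 to 5 kb (3873 peaks) and 25.8 at 5 to 10 kb (4878 peaks), a ratio of 1.21. The ratio was 1.18 upstream and 1.24 downstream. Density was higher at 5 to 10 kb on 18 of 19 chromosomes, and chromosome 18 was the exception, with 28.0 at 1 to 5 kb against 19.1 at 5 to 10 kb. The step was also present around genes that stood alone, with no other TSS within 25 kb. Around 1453 such coding genes with a peak within 1 kb of the TSS, density was 19 per Mb at 1 to 5 kb and 30.1 at 5 to 10 kb, and around 5334 without one it was 15.3 and 20.1. Around 1793 lone noncoding genes without such a peak it was 18.5 and 17.6, with no step, and around 278 with one it was 19.8 and 31.3. The cause of the step was not tested, and whether the list was filtered by distance from genes is not given in the sources used here. The same holds for the low share of genes with a promoter peak, and so for the shares of nearest genes below.

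Peaks lay on both sides of the TSS in nearly equal numbers. Of the 8645 proximal peaks with 1 nearest side, 4199 were upstream, or 48.6% (47.5 to 49.6), where 46.3% of the bases 1 to 10 kb from a TSS are upstream. The upstream share was above that of the bases on 13 of 19 chromosomes, and ran from 44.7% on chromosome 14 to 55.2% on chromosome 1. The gap between the sides was widest in the bin next to the promoter, where density was 27.2 per Mb upstream (up to 29.4) and 22.1 downstream (up to 24.1). Between 3 and 4 kb the values were 19.7 and 19.8 and could not be told apart.

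By the RefSeq class of its midpoint, a proximal peak was most often intergenic or intronic. Intergenic peaks made up 45.4% (44.3 to 46.4) of the 8646, where 44.3% of the bases at this distance are intergenic. Introns held 46.4% (45.4 to 47.5) against 49.5% of the bases, and the shortfall lay in first introns, which held 23.5% of the peaks and 26.2% of the bases. Coding exons held 404 peaks, or 4.67% (4.25 to 5.14), against 3.01% of the bases. The 3' UTRs held 218, or 2.52%, against 2.31%, and 5' UTRs held 10. Peaks in coding exons were also richer in G and C, with a median of 56.9% (56.4 to 57.3) against 51.7% (51.6 to 51.9) in intergenic ones.

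In width, score and base composition the proximal peaks were close to the distal ones and far from those at promoters. Their median width was 524 bp (520 to 529), against 747 bp (739 to 755) within 1 kb of a TSS and 523 bp (520 to 527) at 10 to 100 kb. The median score was 693 (689 to 695), against 740 (735 to 745) and 690 (688 to 692). Only 20 proximal peaks, or 0.231%, scored 900 or more, against 517 or 8.38% within 1 kb. A score of 800 or more was reached by 10.9% (10.2 to 11.5) of proximal peaks, 32.7% of those within 1 kb and 11.5% (11 to 11.9) of those at 10 to 100 kb. On each of the 19 chromosomes the median width and score were below those within 1 kb. Against 10 to 100 kb they were above on 9 and 11 chromosomes.

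Base composition followed distance more closely. Median GC content was 52.4% (52.3 to 52.5) in proximal peaks, between 58.8% (58.6 to 59.0) within 1 kb and 51.5% (51.4 to 51.5) at 10 to 100 kb. The bases 1 to 10 kb from a TSS had 44.0% GC, below the lower quartile of the peaks there, 49.7%. The ratio of CpG dinucleotides observed to those expected from the base composition had a median of 0.237 (0.233 to 0.240) in proximal peaks, 0.653 within 1 kb and 0.225 (0.223 to 0.227) at 10 to 100 kb. The order of GC content, proximal above 10 to 100 kb and below 1 kb, held on 19 of 19 chromosomes. Repeats masked in the reference covered a median of 12.4% of a proximal peak, with quartiles of 5.18% and 27.8%. They covered 30.6% of all bases at this distance, a pooled share that is not the same measure as a median over peaks.

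**Figure D2:**
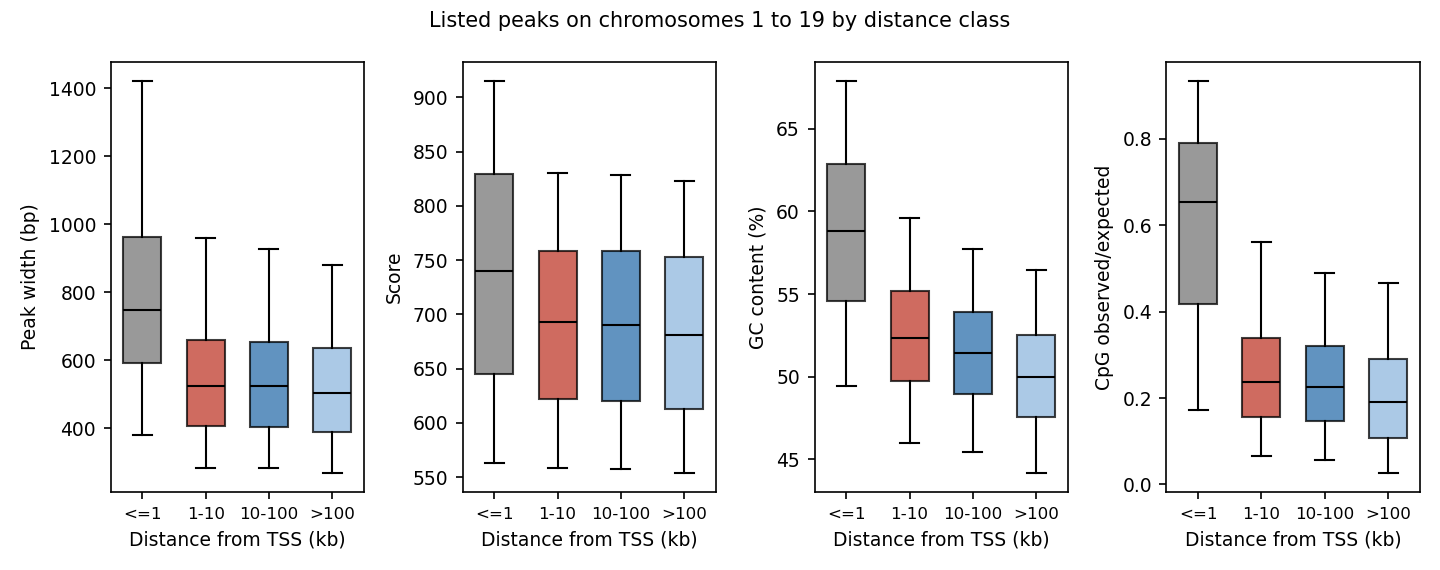
Peak width in bp, score, GC content in percent and CpG observed/expected ratio (vertical axes) of listed peaks within 1 kb, 1 to 10 kb, 10 to 100 kb and beyond 100 kb of a TSS (horizontal axes). Boxes span the quartiles with the median as a line and whiskers run from the 5th to the 95th percentile. Proximal peaks, with medians of 524 bp, 693, 52.4% and 0.237, match the distal classes more closely than those within 1 kb.

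Few proximal peaks resembled CpG islands. CpG-rich peaks, defined as 200 bp or more with at least 50% GC and a CpG ratio of 0.6 or more, numbered 279, or 3.23% (2.87 to 3.62). The share was 56.8% (55.5 to 58.0) within 1 kb and 1.21% (1.07 to 1.37) at 10 to 100 kb. Within the proximal class it went from 6.92% (5.56 to 8.59) at 1 to 2 kb to 4.13% at 2 to 5 kb and 1.88% (1.54 to 2.31) at 5 to 10 kb. The CpG-rich peaks were wider, with a median of 634 bp (606 to 680) against 521 bp (517 to 526) for the others, while their median score of 701 (683 to 716) was not separated from 692 (689 to 695). They lay in coding exons in 18.6% of cases (14.5 to 23.6), against 4.21% of the others (3.8 to 4.66), and less often in first introns, 14.3% against 23.8%.

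The rule used curated transcripts only, and RefSeq also holds predicted ones (XM_ and XR_). A predicted TSS lay within 1 kb of 595 proximal peaks, or 6.88% (6.37 to 7.43), where 3.62% of the bases 1 to 10 kb from a curated TSS lie that close to one. The distance of a peak ran from its nearest edge and that of a base from a single position. A peak thus comes within 1 kb of more positions than a base does, and these shares are not the same measure. Among CpG-rich proximal peaks the share was 19% (14.8 to 24.0), and among the others 6.48% (5.97 to 7.03). The CpG-rich peaks were also wider, as given above, and the part of width in this contrast was not tested. Peaks beside a predicted TSS had a median GC content of 53.9% against 52.3% for the rest, with median scores of 687 and 693.

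Motifs of promoter-binding factors were rarer in proximal peaks than within 1 kb of a TSS, and those of several enhancer-binding factors were more frequent. Each motif was searched on both strands in the 300 bp around the peak midpoint, so width did not enter, although 567 proximal peaks, or 6.56%, were narrower than that window. The GC box of SP factors (GGGCGGG) was in 11% of proximal peaks (10.4 to 11.7), 36.3% of peaks within 1 kb (35.1 to 37.5), 9.25% at 10 to 100 kb and 13.5% of all peaks. The ETS motif (CCGGAAG) was in 3.41% (3.05 to 3.82), against 15.7% within 1 kb and 5.06% of all. The CRE (TGACGTCA), bound by CREB and ATF factors, was in 0.416% against 2.25%, with 0.686% of all. The YY1 motif (AAGATGGCG) was in 0.289% (0.196 to 0.427) against 2.74%, with 0.758% of all, and the NRF1 motif (GCGCATGCG) in 0.289% against 1.99%, with 0.507% of all. The NFY motif (ACCAATC) was in 3.34% against 6.63%, with 3.95% of all, and the E-box of MYC (CACGTG) in 5.63% against 8.13%, with 5.55% of all. For these 7 motifs, the intervals of proximal peaks and of peaks within 1 kb did not overlap. At 10 to 100 kb the shares were 3.23% for ETS, 0.428% for CRE and 0.409% for YY1. They were 0.233% for NRF1, 3.61% for NFY and 5.03% for the E-box. Apart from the GC box, their intervals overlapped with those of proximal peaks, so these low shares were not particular to the proximal class.

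The SOX motif (ACAANGG) was in 20.1% of proximal peaks (19.3 to 21.0), 11.6% within 1 kb (10.9 to 12.5), 21.0% at 10 to 100 kb and 19.8% of all. AP-1 (TGANTCA), the site of FOS and JUN dimers, was in 11.8% (11.1 to 12.5) against 5.47% within 1 kb, with 11.3% of all. TEAD (CATTCCA), the partner of YAP, was in 6.72% against 3.13%, with 6.54% of all, and the motif of GATA factors (AGATAAG) in 2.64% against 1.39%, with 2.74% of all. The ESRRB motif (TCAAGGTCA) was in 121 proximal peaks, or 1.40% (1.17 to 1.67), against 0.308% (0.197 to 0.481) within 1 kb, with 1.29% of all. The octamer of OCT4 (ATGCAAAT) was in 212, or 2.45% (2.15 to 2.80), against 1.67% (1.38 to 2.02), with 2.84% of all. For all 6 of these motifs, the share at 10 to 100 kb was higher in value than that of proximal peaks, with 12.5% for AP-1, 7.20% for TEAD, 3.11% for GATA, 1.49% for ESRRB and 2.96% for the octamer.

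The KLF motif (GGGNGTGG) and the CTCF core (CNAGGNGGC) behaved otherwise. KLF was in 25.6% of proximal peaks (24.7 to 26.6), above both 22.4% within 1 kb (21.3 to 23.4) and 23.2% at 10 to 100 kb (22.6 to 23.8), with 23.3% of all. The CTCF core was in 10.5% (9.85 to 11.1), below 12.1% within 1 kb (11.3 to 13) and above 9.38% at 10 to 100 kb (8.99 to 9.78), with 9.77% of all. None of the 15 motifs matched in 2681 proximal peaks, or 31.0%, and 2459 held 2 or more. These shares move with base composition, which differs between the classes as given above, and its part in them was not tested.

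**Figure D3:**
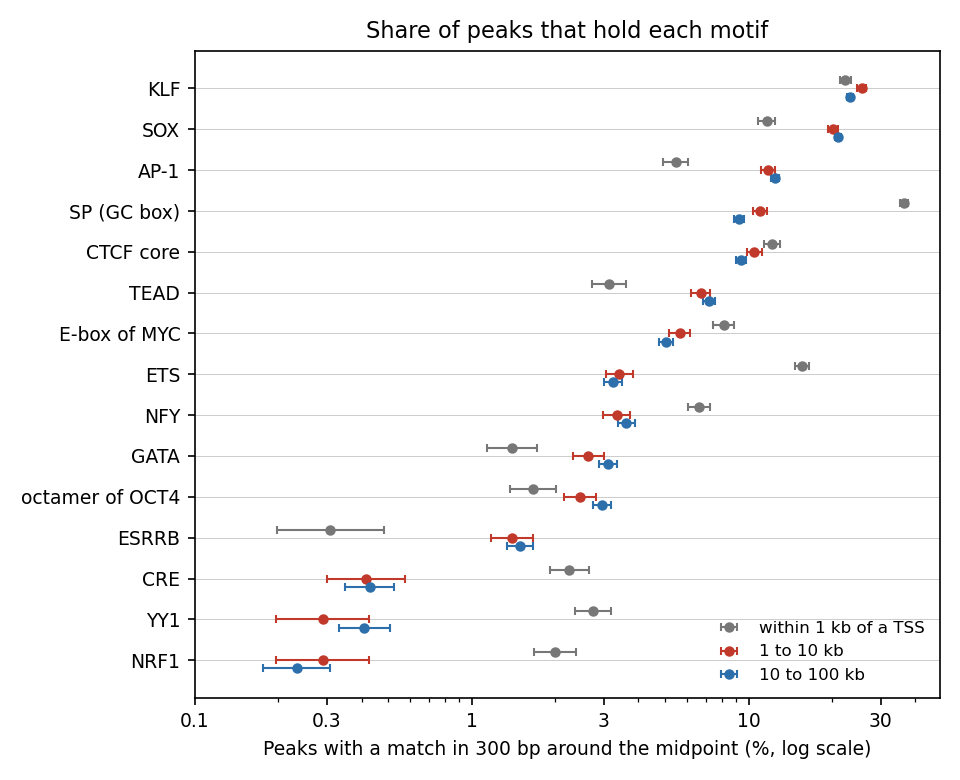
Share of peaks with a match of each motif in 300 bp around the midpoint (horizontal axis, percent on a log scale) for 15 motifs (vertical axis), in peaks within 1 kb, 1 to 10 kb and 10 to 100 kb from a TSS, with Wilson 95% intervals. For SP the shares are 36.3%, 11% and 9.25% in that order. For KLF the proximal share, 25.6%, lies above both others, and for the CTCF core, at 10.5%, it lies between them.

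Within the proximal class, the shares of some motifs moved with distance, CpG content or score, and those of others hardly did. The GC box was in 13.1% of peaks at 1 to 2 kb, 12.4% at 2 to 5 kb and 9.76% at 5 to 10 kb, while the SOX motif was in 16.2%, 21.6% and 20.2%. KLF stayed at 26.0%, 26.2% and 25.3%, and the CTCF core at 10.6%, 10.9% and 10.2%. CpG-rich proximal peaks held the GC box in 31.5% and the ETS motif in 11.1% of cases, against 10.3% and 3.16% of the others. In these peaks the SOX motif was in 11.1% and AP-1 in 4.66%, against 20.4% and 12%. Whether the nearest gene had a peak within 1 kb made little difference, with SOX in 19.8% and 20.3% and KLF in 26.8% and 25.1%. Proximal peaks with the octamer had a median score of 727 (710 to 739), against 693 for all proximal peaks. Of the octamer peaks, 15.6% scored 800 or more (11.3 to 21.1), against 10.8% of proximal peaks without the octamer (10.1 to 11.4), and these intervals overlapped. The NFY motif was in 5.32% of proximal peaks that scored 800 or more (4.06 to 6.94) and in 1.89% of those below 600 (1.32 to 2.70), whereas AP-1 was in 11.8% and 12.2% and TEAD in 6.17% and 6.20%. A SOX match was in 49 of the 212 octamer peaks, or 23.1% (17.9 to 29.2), and in 20.1% of the proximal peaks without the octamer, a difference within the counting error.

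A neighbouring peak within 5 kb was more frequent for proximal peaks than for the other classes, but one within 1 kb was about as frequent for all classes up to 100 kb. The next peak lay within 5 kb for 3429 of them, or 39.7% (38.6 to 40.7), against 28.1% for peaks within 1 kb of a TSS, 31.4% at 10 to 100 kb and 19.5% beyond 100 kb. It lay within 1 kb for 8.93% (8.35 to 9.55), against 8.35% (7.69 to 9.07) and 8.52% (8.15 to 8.90) of the classes within 1 kb and at 10 to 100 kb and 5.67% beyond 100 kb. In 2051 of the 3429 cases the neighbour was proximal too, and in 998 it lay within 1 kb of a TSS. The median gap to the next peak was 6594.5 bp (6373 to 6758). It was 4079 bp where the nearest gene had a peak within 1 kb and 9885 bp where it had none, a contrast that the promoter peak itself helps to set.

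The nearest gene of a proximal peak had a listed promoter peak somewhat more often than genes in general. Of the 8646, 2853 or 33.0% (32.0 to 34.0) had a nearest gene with a peak within 1 kb of any of its TSSs, against 26.6% (26.0 to 27.1) of all 24963 genes. With only peaks above the median score the shares were 21.1% and 17.3% (16.8 to 17.7), the latter an alternative chosen after seeing the data. The shares of proximal peaks count a gene once for each of its peaks, whereas the shares of genes count it once. A coding gene was nearest for 81.9% of proximal peaks, and 28.8% of coding genes had a promoter peak. Seen from the genes, 5324 coding genes, or 26.6%, had at least 1 proximal peak by nearest TSS, of which 3967 had 1, 1033 had 2 and 324 had 3 or more. A proximal peak was present at 31.4% of coding genes with a promoter peak and at 24.7% of those without. The share went up with the number of TSS positions that can gather peaks, from 24.5% (23.9 to 25.2) of genes with 1 to 33.4% with 2 and 43.3% (40.3 to 46.5) with 3 or more. Only 1 gene had a TSS within 10 kb for 78.3% of proximal peaks, so for 21.7% the nearest gene is one of several.

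The most proximal peaks per gene were 6, at 4 genes, and another 16 genes had 5, of which the 6 that come first by symbol are named. Abr, which encodes a regulator of RAC and CDC42, had 6 spread over 6 TSS positions, with scores from 558 to 775. Sgk1, a kinase induced by serum and glucocorticoids, also had 6 over 6 positions, with scores from 609 to 815. Ankrd6, an ankyrin repeat protein of WNT signalling, had 6 over 3 positions. Lncenc1, a noncoding RNA abundant in embryonic stem cells, had 6 over 2 positions, from 574 to 827. The 4 genes with the most all had a promoter peak, against 26.6% of all genes, where a peak at any TSS of a gene counted. Crb2, a determinant of epithelial polarity, had 5 peaks around a single TSS and no promoter peak. Its 3 upstream peaks lay at 1297, 4054 and 8473 bp with scores of 679, 704 and 817, and its 2 downstream ones, in the first intron, at 4027 and 5769 bp with scores of 681 and 717. The peak at 4054 bp held the octamer, SOX and AP-1 motifs. Agtrap, whose product binds the angiotensin II receptor, likewise had 5 around a single TSS without a promoter peak, from 1068 to 4906 bp away. The others were Arhgap27 and Asic1, without a promoter peak, and Eml1 and Gm45521, with one.

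Of the 10 highest-scored proximal peaks, 8 lay inside genes, though not always inside the nearest one. Of all proximal peaks, 45.4% were intergenic and the rest lay inside genes. Zfhx3, a zinc finger homeobox gene, led with a score of 948 at 7860 bp downstream in its first intron, followed by Gnai2 with 942, Tsks with 940 and Rpn1 with 936. Arl5c had 931 and Taok3 929, and Nrxn2 and Per1, a core clock gene, both had 927. Celsr3 and Slc25a41 closed the 10 with 923. Those of Per1, Celsr3 and Nrxn2 had CpG ratios of 0.692, 0.831 and 0.745, whereas those of Zfhx3 and Gnai2 had 0.167 and 0.0839. The widest peak measured 3891 bp and lay 4350 bp upstream of Klf9, with a score of only 577. The next 4, near Elovl3, 4933404K08Rik, Chadl and Mir6935, measured 2110 to 2428 bp with scores from 578 to 634, all below the median of proximal peaks.

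Of 20 genes of the pluripotency network, 12 had a proximal peak, or 60.0% (38.7 to 78.1), against 26.6% of coding genes. These 25 peaks had scores from 545 to 906 with a median of 710. A score of 800 or more was reached by 7 of them, or 28%, against 10.9% of all proximal peaks. Of the 25, 20 were intergenic, against 45.4% of all proximal peaks, and 14 were upstream, against 48.6%. Pou5f1 had 3, all upstream, with scores of 906 at 1645 bp, 545 at 8618 bp and 586 at 9107 bp, and an upstream enhancer is known for this gene. The highest of these scores was thus that of the peak nearest to the TSS. Nanog had 1, at 4236 bp with a score of 850. Klf2 had 2 upstream, with 902 at 2307 bp and 809 at 7510 bp, the latter with the octamer and AP-1 motifs, and no promoter peak. Of the 25 peaks of this list, 7 held SOX, 2 the octamer and 7 KLF. Over all proximal peaks these motifs were in 20.1%, 2.45% and 25.6%. Here and below, motif matches are named for some peaks only.

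Lin28a, which encodes an RNA-binding repressor of let-7, had 1 peak with a score of 891 in an intron at 6392 bp downstream. Dppa3, a maternal factor active in naive cells, had 2 with scores of 795 and 794, at 1448 bp upstream, with the octamer, and at 6695 bp downstream. Fgf4, an autocrine growth factor of mESCs whose known enhancer lies in its 3' UTR, had 3. The one in the 3' UTR, at 3007 bp downstream, scored 678 and held the ESRRB and KLF motifs, and the one at 9564 bp upstream scored 821 and also held ESRRB. Dppa5a had 3 (782, 632 and 805), Prdm14 3 (679 to 710), Utf1 2 (748 and 752) and Sall4 2 (554 and 699). Tfcp2l1 had 2 (571 and 658) and Nr5a2 1 (692). Sox2, Klf4, Klf5, Esrrb, Tbx3, Zfp42, Tdgf1 and Dppa4 had none.

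Of 18 genes of the LIF, Nodal, BMP and FGF pathways, 15 had a proximal peak, or 83.3% (60.8 to 94.2), against 26.6% of coding genes. Among ligands, Nodal had 2 upstream, with a score of 827 at 1226 bp and 608 at 7491 bp. Lefty1 and Lefty2, the secreted inhibitors of Nodal, had 1 each, 857 at 9542 bp and 586 at 3443 bp upstream. Of the receptor genes, Lifr had 2 in its first intron (834 and 620) and Il6st, which encodes gp130, had 1 with a score of 674 that held both the octamer and SOX. Of the targets of BMP, Id1 had 2 (880 and 773), Id2 1 (701), Id3 1 (714) and Smad7 1 (771). Of the targets of LIF and STAT3, Socs3 had 3 (548, 670 and 792), Pim3 2 (587 and 802), Bcl3 1 (777) and Junb 1 (790). The feedback genes of FGF signalling scored low, with 586 for Spry2 and 567 for Dusp6. Pim1, Stat3 and Spry4 had none.

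Genes of DNA methylation and Polycomb had a proximal peak in 10 of 14 cases, or 71.4% (45.4 to 88.3), against 26.6% of coding genes. Their 16 peaks had a median score of 757.5, from 587 to 858. Tet1, which oxidises 5-methylcytosine, had 3, with 830 at 5113 bp upstream, 752 at 9499 bp upstream, which held SOX and ESRRB, and 731 in the first intron. Tet2 had 2 (821 and 587). Of the methyltransferases, Dnmt3a had 3 (717, 723 and 759), Dnmt1 1 (795) and Dnmt3b 1 (756). Dnmt3l, which encodes the cofactor of the Dnmt3a and Dnmt3b enzymes, had 1 (777). Of the Polycomb group, Epop had 2 (858 and 620), Jarid2 1 (805), Eed 1 (778) and Cbx7 1 (662).

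Regulators of the germ layers and trophoblast, which mESCs mostly hold silent, had a proximal peak in 8 of 20 cases, or 40% (21.9 to 61.3), an interval that holds the 26.6% of coding genes. The scores of these 15 peaks were low, from 545 to 765 with a median of 608. Eomes had 3 (665, 592 and 625), Foxa2 3 (706, 641 and 642), and Cdx2 (547 and 596), Hand1 (608 and 547) and Pax6 (545 and 765) 2 each. Sox1 (598) and Myod1 (559) had 1 each. Of the 15, 13 lay below the median of proximal peaks, whereas 4 of the 15 were CpG-rich, against 3.23% of all proximal peaks. The median CpG ratio was 0.520 over the list, 0.181 over the pluripotency list and 0.237 over all proximal peaks.

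Of 12 fibroblast genes, 2 or 16.7% (4.7 to 44.8) had a proximal peak, an interval that also holds 26.6%. Col1a1 had 1 peak (644) and Thy1 2 (638 and 650). Of 16 genes of cohesin, its loaders and ZBTB factors, 5 or 31.2% (14.2 to 55.6) had 1 peak each, an interval that holds the 26.6% of coding genes. These were Smc3, Mau2, Pds5a, Esco1 and Zbtb7a, with scores from 660 to 700. Zbtb21 had none. Of 11 housekeeping genes, 7 had one, or 63.6% (35.4 to 84.8), against 26.6% of coding genes, with 10 peaks from 573 to 751. This share and that of the pluripotency genes differed by less than counting error. The lists are small, and many of their intervals overlap. That of the LIF, Nodal, BMP and FGF list (60.8 to 94.2) lay above those of the fibroblast and cohesin lists. That of the DNA methylation and Polycomb list (45.4 to 88.3) lay just above that of the fibroblast list. All lists were drawn up with results of these data known.

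**Figure D4:**
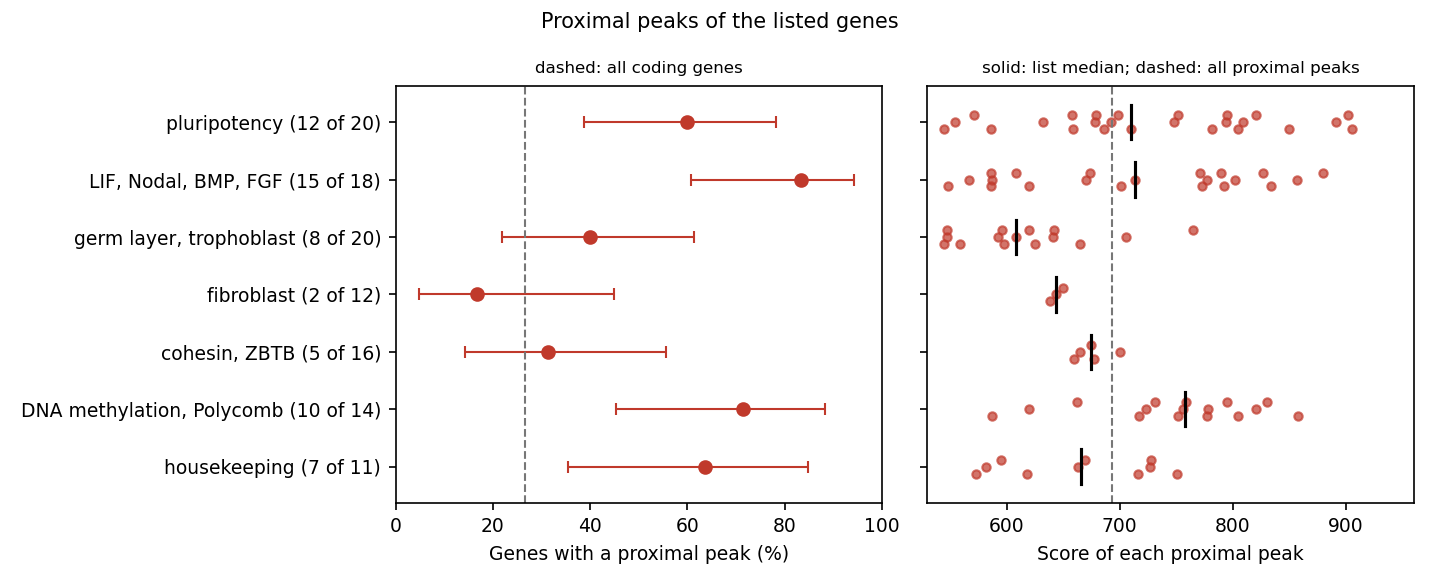
Left, share of the genes of each list with a proximal peak (percent, horizontal axis) with Wilson 95% intervals, and all coding genes at 26.6% as a dashed line. Right, the score of each of their proximal peaks (points) with the list median (solid) and the median of all proximal peaks, 693 (dashed). Peaks of the germ layer and trophoblast list lie mostly below that line, with a median of 608.

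The limits of the class cut through a continuous range of distances. Just outside the inner limit, the peaks at 998 and 1000 bp near Pik3r4, Dok2 and C1qa measured 446, 550 and 419 bp with scores of 853, 776 and 582, and just inside, those at 1002 and 1004 bp near Dctn2, Gon7 and Phldb3 measured 236, 394 and 316 bp with scores of 583, 645 and 730. At the outer limit, the peaks at 9997, 9998 and 10000 bp near Dnajb1, Klhl2 and Cercam scored 709, 562 and 708. Those at 10002, 10003 and 10009 bp near 4930556M19Rik, Impa2 and Cox4i1 scored 736, 700 and 787.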

How the data were processed

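ATAC-seq was performed by the authors on V6.5 mESCs with Tn5 and size selection for mono- and dinucleosome fragments. The submitters' processing notes name cutadapt 2.6, Bowtie2 2.3.5.1, MACS2 2.1.1 and mm10. How the ATAC-seq peaks were called, and whether cut sites were shifted, is not given in the sources used here. For ChIP-seq the study states MACS2, an IDR of 0.05 and removal of blacklisted regions. The deposited list pools 2 replicates and gives each peak a score, whose minimum of 540 equals the scaled score of an IDR of 0.05. Depth is unknown.

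TSSs were the 30179 positions of NM_ and NR_ transcripts of RefSeq (GRCm38.p6, the assembly mm10 names) on chromosomes 1 to 19. Where transcripts overlap, exons ranked above first introns and these above other introns. Distances and motif searches were tested on simulated data (0 of 2000 and 0 of 500 differed). No test was run: shares have Wilson intervals, medians order-statistic intervals and densities Poisson intervals. Python 3.11.15, numpy 2.4.6, pandas 2.3.3, scipy 1.17.1 and statsmodels 0.14.6 were used. The class and the gene lists were chosen with earlier results of these data known. Named were the 10 genes with most proximal peaks (ties by symbol), the 10 highest-scored and 5 widest peaks, and the listed genes, some of which are not reported here by name. Alternatives were other distances, transcripts, scores, chromosomes, windows and merging. The 4 degron samples and the partial supplementary peak table were not used here.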

Additional observations from a re-analysis of the deposited data

How the results depend on the processing

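The number of proximal peaks was 3818 with an upper limit of 5 kb and 4197 with only peaks above the median score, and stayed between 7061 and 8793 with distances from the midpoint, NM_ transcripts only, a lower limit of 2.5 kb, peaks within 500 bp merged or chromosome X added. The upstream share was 50.2% with the limit of 5 kb. The share with a promoter peak at the nearest gene was 35.8% by midpoint, 35.3% with NM_ transcripts, 30.7% with the limit of 5 kb and 21.1% with only peaks above the median score, where fewer promoter peaks remain. Median width was 578 bp with those peaks and 530 bp after merging, and median score 760 with those peaks. Median GC content was 52.5% with NM_ transcripts, 52.2% with the lower limit of 2.5 kb and 52.9% with the limit of 5 kb. The share in introns moved by less than its interval under all 7 alternatives. Merging gives no score. In windows of 500 bp, 12 of 15 motif shares moved beyond their interval. The wider window holds the narrower one, so no share could fall, and the count does not measure robustness. Each motif kept the direction of its difference between proximal peaks and peaks within 1 kb of a TSS. Counting every gene with a TSS 1 to 10 kb away gave 32.2% of coding genes in place of 26.6%. The ratio of densities, 1.21, was 1.24 with only peaks above the median score, 1.38 around lone coding genes and 1.04 around lone noncoding genes, alternatives chosen after seeing the data.

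No paired analysis was possible because the list pools both replicates, and for the same reason no replicate was left out in turn. A listed peak is a call past a threshold, and a region without one is not shown to be closed. The score is not a level of accessibility.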
